A study of Mus musculus with 13 samples.

Results

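Aquaporin genes encode membrane channels for water and other small molecules. The 8 genes Aqp1, Aqp3, Aqp4, Aqp5, Aqp7, Aqp8, Aqp9 and Aqp11 were described here, out of 17097 genes measured on 13 expression arrays. They were chosen by symbol, from a family whose levels on these same arrays were already known to differ between the groups, so their levels and differences stand as a description and no test of the family was made. All arrays came from C57BL/6 mice that carry Lgr5-EGFP-ires-CreERT2, a knock-in that makes cells using the Lgr5 promoter produce green fluorescent protein (GFP), and no treatment was named. Hair follicle cells (3 arrays) were sorted from skin and titled as GFPdim. From the small intestine came Lgr5+ stem cells, sorted for strong GFP (GFPbright, 4 arrays), their first descendants, sorted for weak GFP (GFPdim, 3 arrays), and epithelial cells of the villus (3 arrays). Each sort combined 3 mice. No age was found for the mice in the sources used here, and the methods and results of the study differ on whether the villus cells were sorted. A label field on the level of Lgr5 went against the title for GFPbright 2, GFPdim 2 and GFPdim 3, and named a high level for all villus and hair follicle arrays, so it was not used, and groups follow the titles and, for hair follicle, the source name.

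Aquaporins sit in the membrane as tetramers in which each subunit forms its own pore, and water crosses along the osmotic gradient. Aqp1, Aqp4 and Aqp5 are counted as water channels and Aqp8 as a channel for water, ammonia and hydrogen peroxide. Aqp3, Aqp7 and Aqp9 are aquaglyceroporins, which also let glycerol through. Aqp11 lies apart from both branches in sequence and is found on membranes inside the cell. In the small intestine, crypts secrete chloride and fluid while villi absorb sodium, nutrients and water, so cells pass from the one setting into the other as they leave the crypt.

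The values are intensities after robust multi-array averaging, with no unit, and each probe set binds with its own strength, so a level is compared between groups and never between genes. To judge which levels stand above the floor of the arrays, 86 probe sets for receptors of smell, pheromones and bitter taste, which these cells are not known to use, were read as a background. Their 95th percentile was an intensity of 7.9, called the receptor level here. Within the groups this percentile was 8.41 in hair follicle, 7.9 in GFPbright, 7.53 in GFPdim and 7.7 in villus. Levels are given as the mean ± SD of the arrays of a group. Differences are given on the log2 scale with their standard error (SE) from 1 limma fit over all 13 arrays, and a gene is called where its p, adjusted by Benjamini-Hochberg over the 17097 genes, was under 0.05. Where the group with the smaller mean did not exceed that background, the fold was taken against the receptor level itself and is given as "at least".

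Markers were read to check the groups. Lgr5 averaged 568.5 ± 107.1 in hair follicle, 649.8 ± 118.0 in GFPbright, 30.9 ± 30.5 in GFPdim and 6.07 ± 1.10 in villus (SD, n = 3, 4, 3 and 3), and the hair follicle arrays, though titled GFPdim, overlapped the GFPbright arrays. The summed intensity of 5 stem cell markers, Lgr5 included, was 7318 to 9582 in GFPbright and 2637 to 3605 in GFPdim. It was 696.7 to 920.2 in hair follicle and 63.7 to 136.6 in villus. Of these markers, Olfm4 was at 4.97 ± 0.75 in hair follicle, against 6224 ± 846 in GFPbright. All 7 hair follicle keratinocyte markers were above the receptor level in hair follicle, but Itga6 was higher in GFPbright (992.1 ± 50.9) than in hair follicle (816.2 ± 131.9). The summed intensity of 4 enterocyte markers was 32236 to 33285 in villus arrays, 5462 to 8054 in GFPdim and 1244 to 2174 in GFPbright. In GFPdim the sums of goblet (16617 to 19692), Paneth (5025 to 9240) and enteroendocrine markers (3906 to 5227) were higher than in any array of GFPbright. Among the Paneth markers, Lyz1 overlapped between GFPdim (12.3 to 51.6) and GFPbright (13.3 to 24.6). In villus the goblet (12834 to 14379) and enteroendocrine sums (1215 to 1971) were also above every GFPbright array. The tuft sum was highest in villus (135.9 to 165.6). Of 4 lymphocyte markers, 4 were above the receptor level in villus and 1 in each other group. In hair follicle, 5 of 5 melanocyte markers (summed intensity 158.8 to 649.5, at most 67.8 on any intestinal array) and 3 of 5 fibroblast markers were above it. Of the fibroblast markers, 2 were above it in villus and 0 in GFPbright and GFPdim. The part of these cells in the levels given below was not tested.

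The stretches before the start sites of the genes are shown for the members that stand for the patterns described below, namely Aqp1 (highest in GFPbright), Aqp3 (highest in hair follicle), and Aqp8 and Aqp11 (highest in villus). They are the 250 bases before the RefSeq start in GRCm38.p6, 5′ to 3′ on the strand of the gene, with every CG in capitals, and in Aqp3 also the TATAAA. Starts were matched by gene identifier and found for 7 of 8 members, all but Aqp4. Methylation of these bases was not measured on the arrays.
Aqp1, chr6:55336049-55336298, plus strand: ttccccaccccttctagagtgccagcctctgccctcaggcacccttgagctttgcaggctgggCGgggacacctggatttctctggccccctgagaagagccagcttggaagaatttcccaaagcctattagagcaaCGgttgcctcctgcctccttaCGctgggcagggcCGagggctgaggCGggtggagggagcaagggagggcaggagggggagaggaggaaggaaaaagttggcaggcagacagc
Aqp3, chr4:41098184-41098433, minus strand: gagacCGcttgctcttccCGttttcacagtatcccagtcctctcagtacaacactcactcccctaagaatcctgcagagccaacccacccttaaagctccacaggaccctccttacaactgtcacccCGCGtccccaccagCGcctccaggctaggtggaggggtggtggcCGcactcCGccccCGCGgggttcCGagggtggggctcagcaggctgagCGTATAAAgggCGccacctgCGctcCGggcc
Aqp8, chr7:123462044-123462293, plus strand: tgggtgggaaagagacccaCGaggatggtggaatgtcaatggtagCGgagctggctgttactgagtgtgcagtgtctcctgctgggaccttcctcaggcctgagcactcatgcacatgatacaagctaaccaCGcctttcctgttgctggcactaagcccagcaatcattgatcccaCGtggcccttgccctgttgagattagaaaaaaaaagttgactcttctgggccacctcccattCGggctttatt
Aqp11, chr7:97738248-97738497, minus strand: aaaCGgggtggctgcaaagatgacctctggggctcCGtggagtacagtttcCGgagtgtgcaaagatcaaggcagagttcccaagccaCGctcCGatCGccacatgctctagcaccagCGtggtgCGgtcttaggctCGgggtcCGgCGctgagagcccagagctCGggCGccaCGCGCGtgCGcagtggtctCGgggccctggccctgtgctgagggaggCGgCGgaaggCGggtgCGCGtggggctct

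These stretches differed in base composition. Aqp11 held 23 CG at 67.2% G and C, Aqp3 held 14 at 64.0%, Aqp1 held 5 at 62.0% and Aqp8 held 5 at 52.4%. The median over 32536 promoters of the same length was 6 CG and 52.4% G and C. At least as many CG as in Aqp11 were found in 13.4% of all promoters, and at least as many as in Aqp1 or Aqp8 in 55.9%. The extremes among the members were Aqp5, with 38 CG, a number reached by 1.89% of promoters, and 1 of the 2 starts of Aqp7, with 0. Of 6 motifs searched, the TATA box (TATAAA, on the strand of the gene only, in 7.55% of all promoters) was found in Aqp3 at positions -29 to -24 from the start, and the AP-1 motif (TGANTCA, both strands, 6.73% of promoters) in 1 of the 2 starts of Aqp9. The other motifs searched on both strands were CTTTGAT of TCF/LEF, CAAAGTNCA of HNF4, CAATAAA of CDX and GGGNGTGG of KLF, which stood in 3.21%, 1.2%, 4.11% and 15.9% of all promoters, and no match to their letters lay in the stretches of the 7 members. Aqp3 and Aqp7 are direct neighbours among protein-coding genes of the mouse genome, and Aqp5 lies between Aqp2 and Aqp6.

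Among the 8 members, Aqp1 and Aqp4 were highest in GFPbright, Aqp7, Aqp8 and Aqp11 in villus, and Aqp3, Aqp5 and Aqp9 in hair follicle. Aqp1 was also far above the receptor level in GFPdim and villus. Aqp5 lay close to that level in hair follicle, and a further probe set of Aqp9 did not give this order. The 4 other family genes were flat. All 8 members were above the receptor level in at least 1 group, and 3 of 8 were above it in hair follicle, 5 in GFPbright, 5 in GFPdim and 6 in villus. Of all genes, 60.6% were above it in hair follicle, 59.1% in GFPbright, 59.6% in GFPdim and 60.4% in villus.

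**Figure D1:**
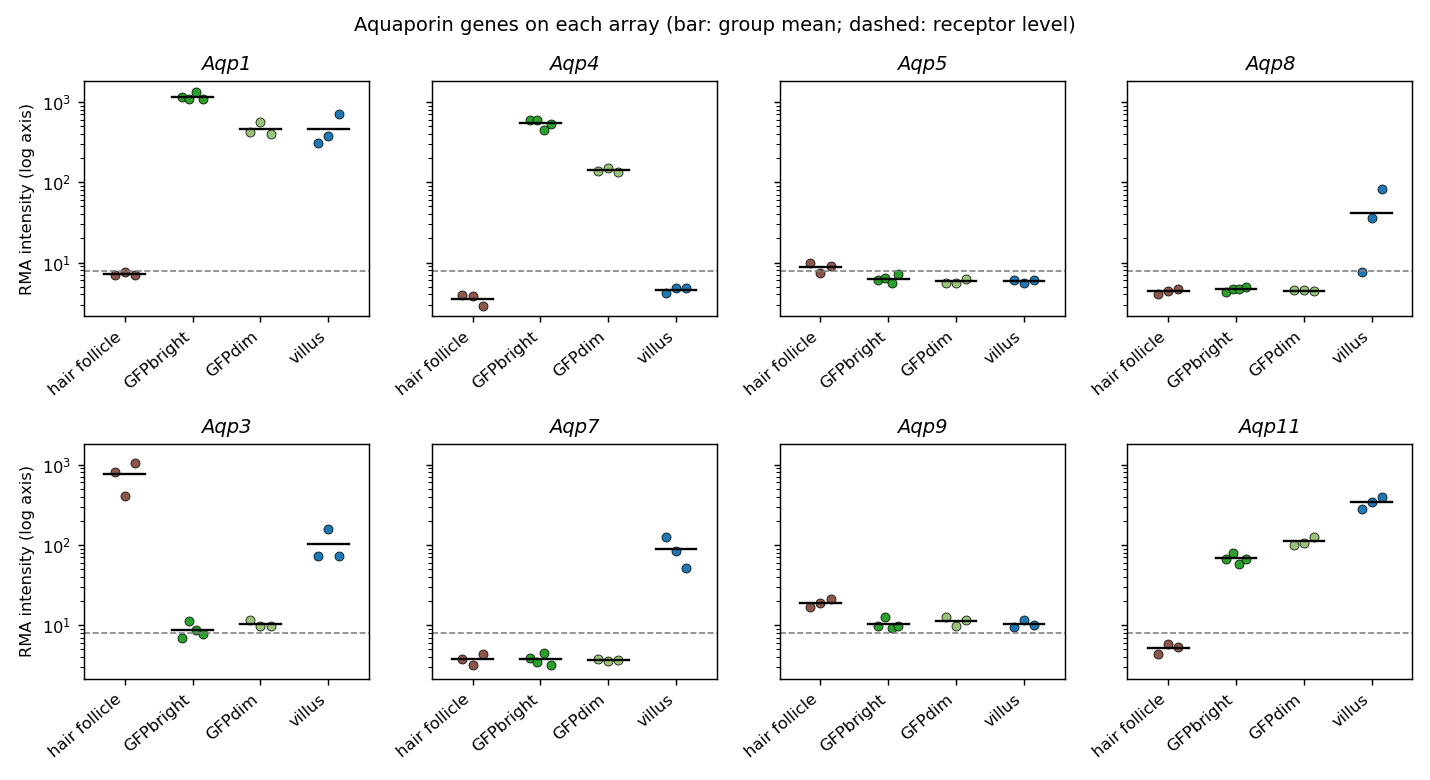
Intensity of the 8 aquaporin genes (log axis) on each of 3 hair follicle, 4 GFPbright, 3 GFPdim and 3 villus arrays, with bars at group means and a dashed line at the receptor level of 7.9. Aqp1 and Aqp4 were highest in GFPbright, Aqp7, Aqp8 and Aqp11 in villus, and Aqp3, Aqp5 and Aqp9 in hair follicle.

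Between GFPdim and GFPbright, 3 of 8 aquaporin genes were called, Aqp11 higher in GFPdim and Aqp1 and Aqp4 lower, where 16.7% of all genes were called. In villus against GFPbright, 6 were called, 4 higher and 2 lower, against 48.9% of all genes. In villus against GFPdim, 5 were called, 4 higher and 1 lower, against 42.1% of all genes. In hair follicle, 3 were higher and 3 lower than in GFPbright (48.6% of all genes called), 3 higher and 3 lower than in GFPdim (46.2%), and 3 higher and 5 lower than in villus (54.3%). The members were chosen on these same contrasts, so nothing is read from the counts. The median difference of the members was 1.16 in villus against GFPbright, with 0.02 over all genes, and -1.54 in hair follicle against villus, with -0.04 over all genes. In each of the 6 comparisons the members called were as many as the members whose groups did not overlap, and groups did not overlap for 26.5% to 59.7% of all genes. The comparisons share their arrays and are not independent of each other.

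**Figure D2:**
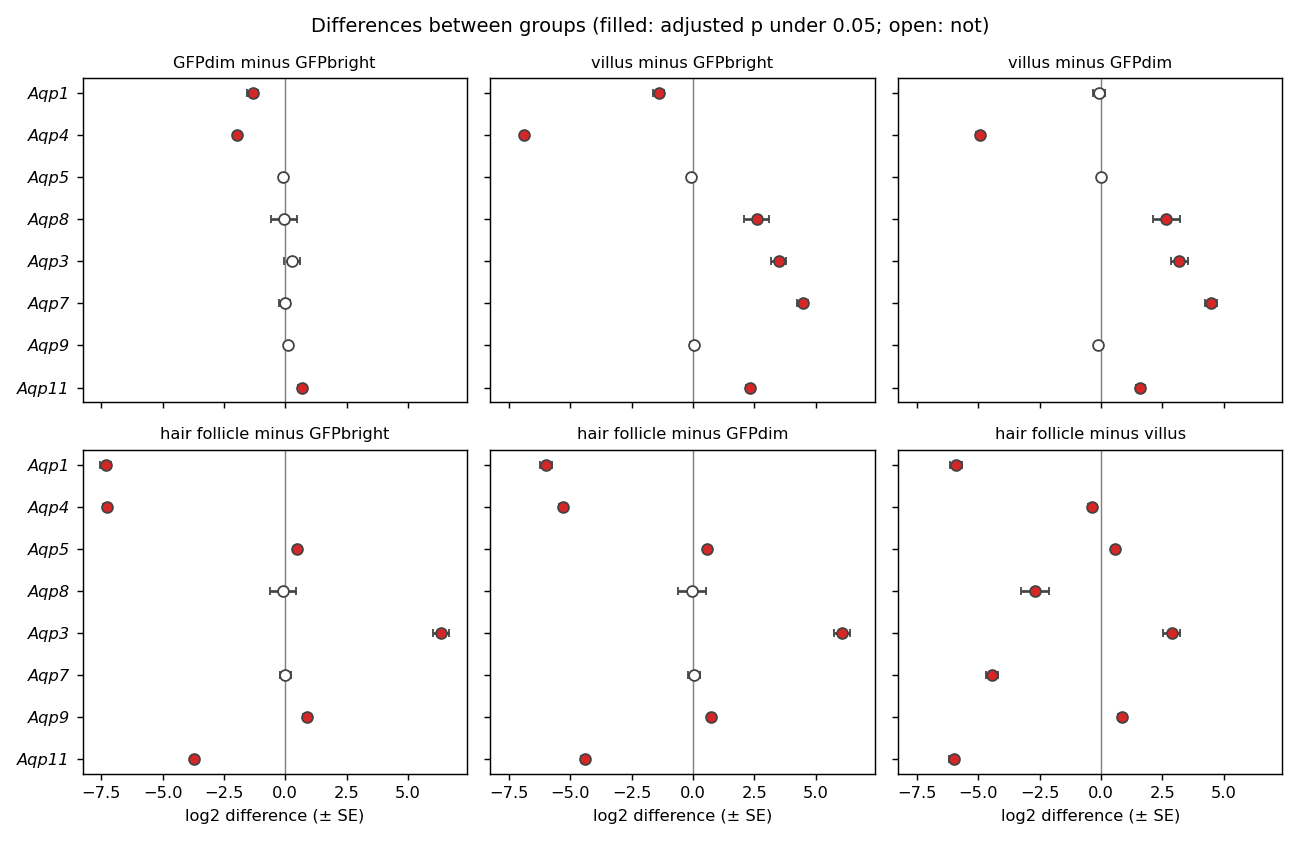
Log2 difference of each aquaporin gene with its SE in the 6 comparisons, each named as the group set first minus the other, filled where the gene was called and open where it was not. Aqp4 lay at -6.88 in villus minus GFPbright, with villus below the receptor level, and Aqp3 lay at 6.36 in hair follicle minus GFPbright, with GFPbright near it.

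Among the water channels, Aqp1, known from red blood cells, vessel walls and the proximal tubule of the kidney, was above the receptor level in all 3 intestinal groups. Its intensity was 7.0, 7.7 and 7.0 in hair follicle, 1142, 1070, 1336 and 1080 in GFPbright, 427.0, 568.4 and 398.7 in GFPdim, and 306.8, 376.9 and 699.8 in villus. Every GFPbright array was above every GFPdim and villus array, GFPdim and villus overlapped, and the hair follicle arrays were all below the receptor level. The level was 464.7 ± 90.9 in GFPdim, against 1157 ± 124 in GFPbright (SD, n = 3 and 4), a log2 difference of -1.33 ± 0.23 (SE), or 2.51-fold lower. Number codes shared by array titles were read as sorts. Within the 3 sorts with an array of each population, the difference was -1.42, -1.23 and -1.44. Villus minus GFPdim was -0.09 ± 0.24, which was not called, and in villus Aqp1 was 2.66-fold lower than in GFPbright. In hair follicle Aqp1 was at least 146-fold lower than in GFPbright, at least 58.1-fold lower than in GFPdim and at least 54.8-fold lower than in villus. In these bulk samples, fewer cells of a type and less RNA per cell cannot be told apart.

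Because Aqp1 is a gene of vessels and red cells too, their markers were read beside it. None of the 6 endothelial markers (0 of 6) was above the receptor level in hair follicle, GFPbright or GFPdim, and only Tek was in villus, through 1 array at 20.0 beside 6.3 and 6.7. The summed endothelial intensity was 29.2 to 33.1 in hair follicle, 27.8 to 31.1 in GFPbright, 27.3 to 30.8 in GFPdim and 33.3 to 49.7 in villus, while Pecam1, Cdh5 and Emcn stayed below the receptor level in all groups. Of 4 erythroid markers, Alas2, Slc4a1 and Epb42 were below it in all groups. The haemoglobin gene Hba-a1 was above it in all groups, at 402.2 ± 240.8 in hair follicle, 68.0 ± 57.7 in GFPbright, 58.3 ± 58.9 in GFPdim and 98.6 ± 86.7 in villus. Within GFPbright and within GFPdim, the arrays had the same order by the summed erythroid intensity as by Aqp1, and within villus the reverse order. The part of vessel and red cells in the level of Aqp1 was not tested.

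Aqp4, the water channel of astrocyte end-feet, was above the receptor level in GFPbright and GFPdim alone with its brightest probe set. Its intensity was 3.9, 3.8 and 2.9 in hair follicle, 600.6, 598.9, 452.1 and 532.4 in GFPbright, 137.6, 149.8 and 132.7 in GFPdim, and 4.2, 4.8 and 4.8 in villus. The 4 groups did not overlap, and both villus and hair follicle lay below the receptor level. Aqp4 was at 140.0 ± 8.8 in GFPdim, against 546.0 ± 70.2 in GFPbright, a log2 difference of -1.96 ± 0.14 and 3.88-fold lower. The difference within the 3 sorts was -2.13, -1.59 and -2.0. In villus Aqp4 was at least 68.7-fold lower than in GFPbright and at least 17.7-fold lower than in GFPdim. The same bounds held for hair follicle, at 3.53 ± 0.55. Hair follicle minus villus was -0.39 ± 0.15 on the log2 scale and was called, but neither group was above the receptor level, so no fold was given, and it was not called in several other settings, among them 16 added before log2 (-0.08), a second probe set (-0.11) and leaving out hair follicle 3, villus 2 or villus 3.

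In the intestine Lgr5, Aqp1 and Aqp4 were each highest in GFPbright, whereas in hair follicle Lgr5 was at 568.5 and both channels were below the receptor level.

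Aqp5 and Aqp8 were near the floor in most groups. Aqp5, the channel of salivary, lacrimal and airway glands, was at 9.9, 7.4 and 9.0 in hair follicle, 6.0, 6.4, 5.5 and 7.1 in GFPbright, 5.6, 5.6 and 6.3 in GFPdim, and 6.0, 5.5 and 6.0 in villus. Every hair follicle array was above every intestinal array, but its mean of 8.77 ± 1.27 was close to the receptor level of 7.9 and to the 8.41 that the receptor probe sets gave in hair follicle alone. The differences of 0.48 in hair follicle against GFPbright and 0.58 against GFPdim and villus were called. The median difference of the 86 receptor probe sets was 0.02 against GFPbright, 0.00 against GFPdim and 0.03 against villus.

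Aqp8, known from the colon, liver and pancreas, was above the receptor level only in villus, and unevenly there. It was at 4.0, 4.4 and 4.7 in hair follicle, 4.3, 4.7, 4.7 and 5.0 in GFPbright, 4.5, 4.5 and 4.4 in GFPdim, and 7.7, 35.5 and 81.5 in villus. The lowest villus array was still above all other arrays, though below the receptor level. Of all genes, Aqp8 included, 0.146% had an SD of log2 as large over the 3 villus arrays. Villus minus GFPbright was 2.59 ± 0.52 and villus minus GFPdim 2.66 ± 0.56, at least 3.56-fold each for the group mean, though not for villus 1. Hair follicle minus villus was -2.69 ± 0.56. These SE rest on 1 spread shared by all groups and understate that of villus. The SD of log2 was 1.73 in villus, 0.12 in hair follicle, 0.09 in GFPbright and 0.02 in GFPdim. Without villus 1 the difference of villus from GFPbright was 3.53.

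Of the 3 aquaglyceroporins, Aqp3, which carries water and glycerol in basal keratinocytes and on the basolateral side of epithelia, was highest in hair follicle and next highest in villus. It was at 806.6, 406.3 and 1048 in hair follicle, 6.9, 11.2, 8.8 and 7.7 in GFPbright, 11.7, 9.7 and 9.9 in GFPdim, and 73.3, 159.5 and 73.1 in villus. The hair follicle arrays were above the villus arrays and these above both crypt populations, which overlapped each other around the receptor level. Hair follicle (753.5 ± 324.0) was 7.38-fold above villus (102.0 ± 49.8). GFPdim (10.4 ± 1.1) and GFPbright (8.65 ± 1.87) lay close to the receptor level, so differences from them are given on the log2 scale only, as 6.07 ± 0.34 and 6.36 ± 0.32 for hair follicle and 3.19 ± 0.34 and 3.48 ± 0.32 for villus, each with GFPdim before GFPbright. GFPdim minus GFPbright was 0.29 ± 0.32 and was not called. All 3 probe sets of Aqp3 gave hair follicle first and villus next, with villus minus GFPbright at 3.48, 3.19 and 3.20.

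Aqp7, through which adipocytes release glycerol, was above the receptor level in villus alone. It was at 3.8, 3.2 and 4.4 in hair follicle, 3.9, 3.5, 4.5 and 3.2 in GFPbright, 3.8, 3.6 and 3.7 in GFPdim, and 126.8, 84.9 and 51.9 in villus. No array outside villus reached the receptor level, and the 3 groups outside villus overlapped. The log2 difference in villus was 4.46 ± 0.23 against GFPbright and 4.48 ± 0.25 against GFPdim, at least 10.4-fold in each, and hair follicle minus villus was -4.45 ± 0.25. A further probe set of Aqp7 gave 39.9 to 48.7 in villus and a smaller difference from GFPbright of 3.31 ± 0.14, and the spread between the villus arrays was smaller with it.

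Adipocyte markers were read beside Aqp7. Adipoq and Lep were below the receptor level in all groups, at 4.67 ± 0.25 and 4.37 ± 0.21 in villus, and 0 of 3 adipocyte markers was above it in villus. Lymphocyte markers were read as well. Their summed intensity was 428.2, 397.4 and 234.5 in villus 1, 2 and 3, against 21.5 to 26.2 on all other arrays. Aqp7 was at 126.8, 84.9 and 51.9 in villus 1, 2 and 3, and at 48.7, 39.9 and 43.6 with the further probe set. Aqp3 was highest in villus 2 and Aqp1, Aqp8 and Aqp11 in villus 3. An order of 3 arrays carries little weight, and the part of lymphocytes in these levels was not tested.

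**Figure D3:**
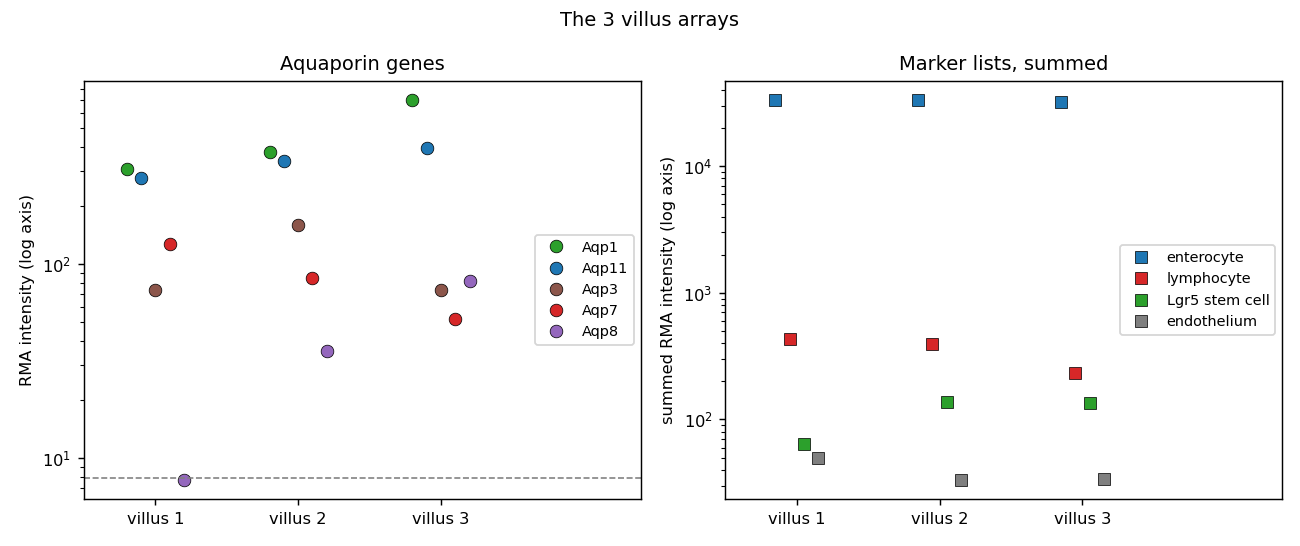
Left, intensity of 5 aquaporin genes on the 3 villus arrays (log axis), with the receptor level of 7.9 as a dashed line, and right, the summed intensity of 4 marker lists on the same arrays (log axis). The enterocyte sum lay between 32236 and 33285, the lymphocyte sum between 234.5 and 428.2, and Aqp8 between 7.7 and 81.5.

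Aqp9, the glycerol channel of liver cells that is also found in human neutrophils, differed little. It was at 16.8, 18.8 and 21.4 in hair follicle, 9.9, 12.6, 9.2 and 9.8 in GFPbright, 12.6, 9.8 and 11.7 in GFPdim, and 9.6, 11.7 and 10.2 in villus. All hair follicle arrays were above all intestinal ones, and the intestinal groups overlapped. These lay near the receptor level, so differences are given on the log2 scale only. Hair follicle differed by 0.88 ± 0.14 from GFPbright, 0.74 ± 0.15 from GFPdim and 0.85 ± 0.15 from villus. A further probe set of Aqp9 was below the receptor level in every group, at 5.53 ± 0.29 in hair follicle and 5.77 ± 0.61 in villus, and did not give this order. Of 7 neutrophil and macrophage markers, S100a8, S100a9, Ngp, Itgam and Adgre1 were below the receptor level in hair follicle, and Cd68 was above it at 45.5 ± 20.8, against 23.5 ± 10.7 in GFPbright, 19.6 ± 3.7 in GFPdim and 6.40 ± 1.42 in villus. Csf1r was above it in every group, at 15.5 ± 2.3 in hair follicle, 15.9 ± 2.2 in GFPbright, 13.4 ± 2.8 in GFPdim and 16.6 ± 1.8 in villus.

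Aqp11, a channel of internal membranes whose loss in mice leads to cystic kidneys, was higher in GFPdim than in GFPbright and higher again in villus. It was at 4.4, 5.9 and 5.4 in hair follicle, 67.3, 79.8, 57.8 and 67.5 in GFPbright, 99.9, 105.3 and 126.3 in GFPdim, and 277.1, 337.4 and 398.2 in villus. No group overlapped another. The mean was 110.5 ± 13.9 in GFPdim, against 68.1 ± 9.0 in GFPbright, a log2 difference of 0.70 ± 0.16 (1.62-fold), and the 3 sorts gave 0.57, 0.87 and 0.90. Villus (337.6 ± 60.6) was 3.04-fold above GFPdim and 4.94-fold above GFPbright. Hair follicle was at least 8.56-fold below GFPbright, at least 13.9-fold below GFPdim and at least 42.3-fold below villus. A dimmer probe set of Aqp11 gave 41.5 to 50.3 in villus and 8.9 to 14.5 in GFPdim, and its difference of GFPdim from GFPbright, 0.44 ± 0.18, was not called.

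**Figure D4:**
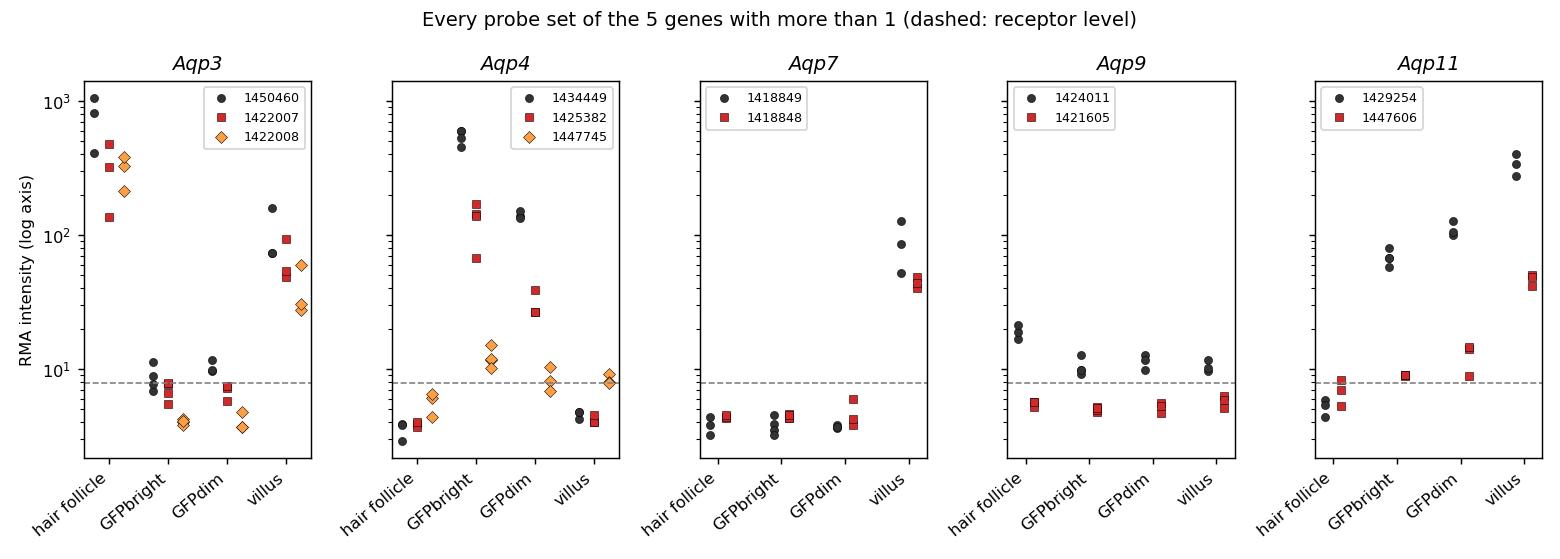
Intensity (log axis) on each array for every probe set of the 5 aquaporin genes with more than 1, by group, with the receptor level of 7.9 as a dashed line. The probe sets of a gene gave the same highest group for Aqp3, Aqp4, Aqp7 and Aqp11, but not for Aqp9. The dimmest ones of Aqp4, Aqp9 and Aqp11 lay close to or below the receptor level in several groups.

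The probe sets of Aqp4 bore on its pattern as well. A second one gave 3.7 to 4.0 in hair follicle, 67.1 to 169.3 in GFPbright, 26.5 to 38.9 in GFPdim and 4.0 to 4.5 in villus, the same order as the main one. Another was dim throughout, at 5.67 ± 1.12 in hair follicle, 12.1 ± 2.1 in GFPbright, 8.40 ± 1.77 in GFPdim and 8.33 ± 0.67 in villus, with GFPbright again highest and villus just above the receptor level. Aqp1, Aqp5 and Aqp8 had 1 probe set each.

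The 4 other family genes on the arrays were flat. These were Mip, the channel of lens fibres, Aqp2 of the kidney collecting duct, Aqp6, a channel of acid-secreting kidney cells, and Aqp12 of pancreatic acinar cells. With limma, 0 of 4 were called in any of the 6 comparisons, 0 of 4 had an unadjusted p under 0.05 in any, and none was called in any other setting tried. Mip, Aqp2 and Aqp6 were below the receptor level in all groups, and Aqp12 had medians of 11.4 in hair follicle, 11.6 in GFPbright, 10.8 in GFPdim and 12.5 in villus.

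Genes of processes in which aquaporins take part were taken from lists, and their counts stand beside the shares of all genes called given above. Of 12 genes that make, break down or use glycerol, 4 rose and 1 fell in GFPdim against GFPbright, and 7 rose and 1 fell in villus against GFPbright, with a median difference of 1.96 beside 0.02 over all genes. Dgat2, which makes triglyceride, was at 1084 ± 135 in villus, against 45.4 ± 10.5 in GFPbright (24.4-fold, limma adjusted p = 5.9e-10). Lipe, the hormone-sensitive lipase, was at 189.3 ± 34.1 in villus, against 7.85 ± 0.90 in GFPbright, at least 23.7-fold (limma adjusted p = 5.61e-10). Gpd1, which makes glycerol 3-phosphate, rose too, to 165.4 ± 28.7 in GFPdim and 374.9 ± 20.5 in villus, against 76.5 ± 6.1 in GFPbright. Gpam, which starts the building of glycerolipids, was the gene that fell in villus, to 20.1 ± 1.4, against 139.3 ± 15.4 in GFPbright. In hair follicle, where Aqp3 was highest, 2 of these 12 genes rose and 7 fell against villus, with a median of -2.08. Gpd1 was at 5.57 ± 0.55 in hair follicle, against 374.9 ± 20.5 in villus. Abhd5, a co-activator of fat breakdown, overlapped between hair follicle (134.7 ± 12.8) and villus (125.5 ± 1.0), and was at 24.7 ± 6.9 in GFPbright.

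Of 12 sodium absorption genes, 7 rose and 0 fell in GFPdim against GFPbright by limma (1 was lower at an unadjusted p under 0.05, median 0.89), and 8 rose and 2 fell in villus against GFPbright (median 2.02). The sodium-proton exchanger Slc9a3 was at 2247 ± 99.8 in villus and 155.8 ± 78.3 in GFPdim, against 14.1 ± 1.8 in GFPbright, so it was 161-fold higher in villus and 10.3-fold higher in GFPdim than in GFPbright. The sodium-glucose transporter Slc5a1 was at 8.90 ± 0.99 in hair follicle, near the receptor level, against 4833 ± 234 in villus, a log2 difference of -9.09 ± 0.21 (limma adjusted p = 1.49e-13). Sgk1, a kinase that activates sodium uptake, was high where Aqp3 was, at 2538 ± 341 in hair follicle and 1601 ± 152 in villus, against 157.0 ± 90.5 in GFPbright and 88.1 ± 21.2 in GFPdim.

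In the chloride and fluid secretion list, several channels and transporters fell. Of 13 genes, 2 rose and 6 fell in GFPdim against GFPbright, and 5 rose and 6 fell in villus against GFPbright. Slc12a2, which loads chloride into the cell, was at 56.6 ± 9.8 in villus and 2135 ± 490 in GFPdim, against 5503 ± 612 in GFPbright, 97.7-fold lower in villus (limma adjusted p = 2.58e-12). Kcne3, a subunit of the basolateral potassium channel, was at 14.7 ± 3.0 in villus and 684.2 ± 162.4 in GFPdim, against 1401 ± 319 in GFPbright. The chloride channel Cftr was at 5.43 ± 1.35 in hair follicle, against 529.7 ± 44.3 in GFPbright, at least 66.9-fold lower. Those that rose in villus included the gut hormone Guca2b, at 5313 ± 299 in villus, against 50.4 ± 7.5 in GFPbright, and the kinase Prkg2, at 770.1 ± 83.6, against 187.8 ± 14.6. In hair follicle 2 rose and 11 fell against GFPbright, with a median of -4.40 beside -0.06 over all genes.

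Aqp4 is held in the membrane of astrocytes and muscle by the dystrophin complex. Of 7 genes of that complex measured, 0 rose by limma (0 also at an unadjusted p under 0.05) and 2 fell in villus against GFPbright, and 3 rose and 1 fell in hair follicle against GFPbright. Dystrophin (Dmd) was at 223.2 ± 49.3 in hair follicle, where Aqp4 was below the receptor level, and at 77.3 ± 10.5 in GFPbright, a log2 difference of 1.52 ± 0.19 (limma adjusted p = 1.27e-05). In villus Dmd was at 19.8 ± 2.8, 3.9-fold below GFPbright.

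Of 14 genes of cell volume and osmotic response, 10 rose and 4 fell in hair follicle against GFPbright, with a median of 1.18. Nfat5, the transcription factor that answers to high salt, was at 1033 ± 244 in hair follicle, 61.8 ± 17.2 in GFPdim and 104.0 ± 9.0 in GFPbright. The osmotically gated channel Trpv4 was at 125.9 ± 11 in hair follicle and below the receptor level in GFPbright (4.65 ± 0.13), at least 15.9-fold higher (limma adjusted p = 1.41e-13). The potassium-chloride cotransporters split, with Slc12a4 at 190.3 ± 15.7 in hair follicle, against 5.25 ± 0.68 in GFPbright, and Slc12a7 at 17.8 ± 7.7 in hair follicle, against 244.5 ± 19.8 in GFPbright.

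Aqp3 and Aqp8 also pass hydrogen peroxide. Of 14 genes that make or remove it, 0 rose by limma (0 also at an unadjusted p under 0.05) and 9 fell in hair follicle against GFPbright, and 6 rose and 5 fell in villus against GFPbright. Catalase (Cat) was at 1574 ± 301 in villus, against 338.6 ± 128.9 in GFPdim (4.86-fold higher). The epithelial glutathione peroxidase Gpx2 was at 71.6 ± 23.4 in hair follicle and 510.3 ± 202.5 in villus, against 2495 ± 354 in GFPbright.

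**Figure D5:**
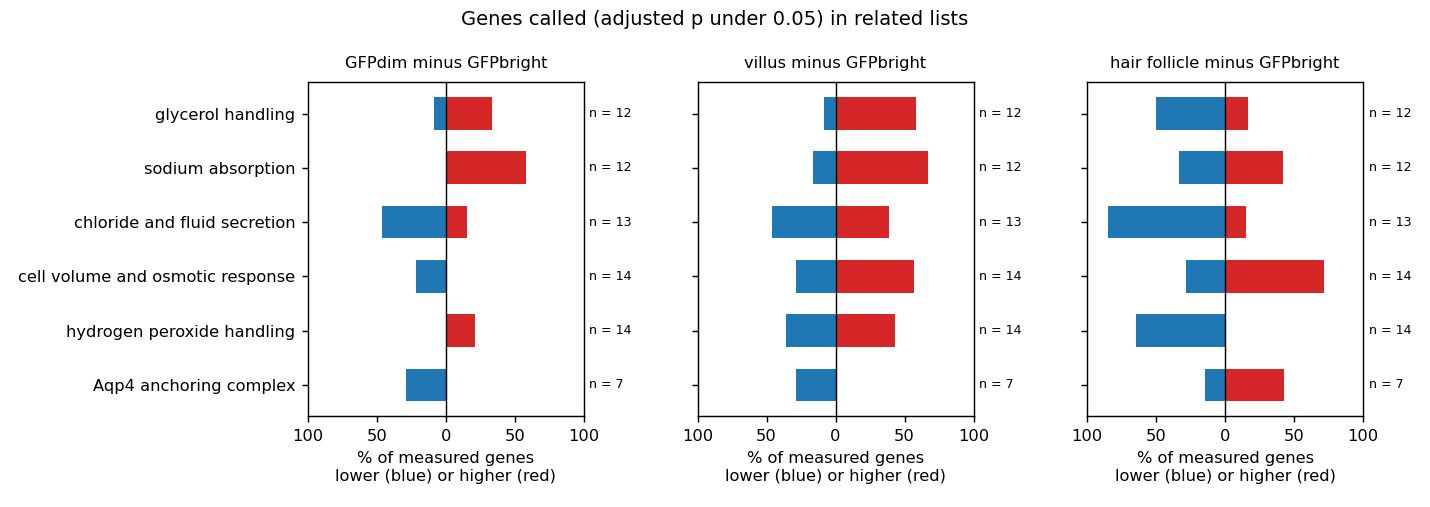
Share of the measured genes of 6 lists that were called higher (red) or lower (blue) in GFPdim, villus or hair follicle against GFPbright, in percent, with the number measured at the right. Of the sodium absorption genes 7 of 12 were higher and 0 lower in GFPdim, and of the chloride and fluid secretion genes 11 of 13 were lower in hair follicle.

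For each member, the genes whose log2 values were most like it over the 13 arrays were found by Pearson correlation among the 11927 genes above the receptor level in at least 1 group. The arrays share 4 groups, so a high value mostly says that a gene has the same order of groups. Aqp4 was most like Aqr, Snx24 and Kcnq1ot1 (r = 0.993 each). The antisense RNA Kcnq1ot1, which overlaps Kcnq1, was at 5.0 in hair follicle, 288.0 in GFPbright, 87.9 in GFPdim and 6.10 in villus, while Aqr lay between 86.0 in hair follicle and 211.0 in GFPbright. Aqp1 was most like Fam234b (0.995), Jade1 (0.989) and Pkig (0.988). Aqp11 was most like Iqgap2 (0.996), Dglucy (0.996) and Aoc1 (0.995), and Iqgap2 was at 2111 in villus, 342.9 in GFPdim and 173.6 in GFPbright. Aqp3 was most like Itgb4 (0.987), a part of the hemidesmosome, Bmp2 (0.986) and Cxcl16 (0.986). The nearest genes to Aqp7 were Cd244a (0.997), a receptor of natural killer and T cells, Ccl24 (0.996), a chemokine that attracts eosinophils, and Ly6m (0.995), each at or below 8.40 outside villus. Those of Aqp8 were Cyp4a10 (0.958), Gkn2 (0.938) and Lao1 (0.934). For the low genes the values were Clk1 (0.946), Dnal1 (0.943) and Id2 (0.939) with Aqp5, and Sdk2 (0.95), Flg (0.95), which encodes filaggrin of the skin barrier, and Slc39a2 (0.948) with Aqp9.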

How the data were processed

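The 13 arrays (Affymetrix HT MG-430 PM) held RNA of 3 hair follicle, 4 GFPbright, 3 GFPdim and 3 villus samples, grouped by the titles in the labels and, for hair follicle, by the source name. Each deposited value is an intensity on a linear scale. The authors obtained it by RMA-sketch in Affymetrix Power Tools (version not given in the sources used here), a procedure of background correction, normalization between arrays and summary to 1 value per probe set. Array medians were 7.8 to 8.7, and arrays of a group correlated at 0.978 to 0.994. The number of arrays limits the precision.

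No normalization was added before the log2 step. Of 45141 probe sets, 28898 named a single gene in the platform annotation, 551 named several and 15692 none. That left 17097 genes, each represented by its brightest probe set (mean log2 over 13 arrays). Groups were compared with limma 3.58.1 in R 4.3.3 (1 fit over 13 arrays, 4 groups, Benjamini-Hochberg), a script tested on simulated data. A p-value sets a difference between groups against the spread between arrays of a group, estimated for each gene over all 4 groups together. RefSeq promoters (GRCm38.p6) were read with Python 3.11.15.

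Number codes in the titles, read here as sorts, pair 3 GFPdim with 3 GFPbright arrays. Deviations of these pairs from their group means correlated at 0.291, 0.451 and 0.320 (without the code as a block in the main fit). Hair follicle 2 shared the code of GFPdim 2 and GFPbright 3, and its deviations correlated with theirs at 0.103 and 0.013. Alternatives were quantile normalization, an offset of 16, only genes above the receptor level, other probe sets or their mean, only the groups compared, a trended prior, the sort as a replicate block, and leaving out each array.

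Named were all members, the 4 other family genes, of each further list up to 3 called genes per comparison with the largest difference and no overlap of groups, and the 3 genes most like each member. Members and lists were chosen with earlier results of these data known. Of the listed genes, 2 of glycerol handling, 1 of chloride and fluid secretion, 2 of sodium absorption, 3 of cell volume, 4 of hydrogen peroxide handling and 1 of Aqp4 anchoring were not analysed here.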

Additional observations from a re-analysis of the deposited data

Results flagged for a closer look

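In groups of 4 arrays, a value far from the others was looked for in the 8 aquaporin genes and 47 further named genes, where chance marks about 1 in 20. None of the 8 aquaporin genes had such a value in GFPbright (0 of 8). Kcne3 was at 924.7 in GFPbright 3, against 1532.5 to 1604.5 in the other GFPbright arrays, a gap of 0.917 of the whole range. Mip was at 5.6 in GFPbright 3, against 4.3 to 4.4 in the others, a gap of 0.913, with all values below the receptor level. Groups of 3 arrays were not examined in this way.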

How the results depend on the processing

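The number of genes called stayed within 1.5 times of its value in all 6 comparisons under every alternative, and the number of aquaporins called did too, at 3 for GFPdim against GFPbright in each setting run on the whole table and at 7 or 8 for hair follicle against villus, where Aqp4 was not called after quantile normalization, with 16 added, with only these groups, with a trended prior, or without hair follicle 3, villus 2 or villus 3. With the dimmer probe set of Aqp11, GFPdim minus GFPbright (0.44) was not called. With the sort as a random replicate block, 3406 genes were called between GFPdim and GFPbright, 3067 with it as a fixed block in the paired arrays, and 2853 without it. In no comparison did the block change the number of genes or aquaporins called by over 1.5 times. The split of that comparison was 1080 higher and 1773 lower in GFPdim, but 1414 higher and 1349 lower after quantile normalization and 1198 higher and 1054 lower without GFPdim 1. Of the differences of single aquaporins under alternatives, 623 moved by less than the spread between replicates, 73 moved further and 2 that had been called changed sign. Some differences near 0 that were not called also changed sign, among them Aqp3 in GFPdim minus GFPbright (-0.02) and Aqp9 in villus minus GFPdim (0.15) with another probe set. With the dimmest probe set of Aqp4, villus minus GFPdim was 0.01, and with the second probe set of Aqp9, hair follicle minus villus was -0.06. Adding 16 before log2 shrank the differences of genes with a group at the floor, for example of Aqp4 in villus minus GFPbright to -4.76. Without villus 1, villus minus GFPbright of Aqp8 was 3.53, and without villus 3 that of Aqp1 was -1.76 and its villus minus GFPdim -0.43, not called. Of list counts, 560 stayed within 1.5 times and 14 did not. Values near the receptor level of 7.9 (Aqp3 in GFPdim and GFPbright, Aqp5, Aqp8 in villus 1, Aqp9) have no firm fold.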
